A study of Mus musculus with 36 samples.

Results

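Among the mRNAs examined here are those of factors that start and extend protein synthesis on the ribosome. The rest carry symbols named after such factors, as for their kinases, repressors and modifiers, and enter every count of members. All were chosen by gene symbol, as every gene of the count tables named Eif1 to Eif6 or Eef1 and Eef2 with any suffix. Eif4enif1 and pseudogenes marked -ps were left out. The rule found 71 symbols, all of them listed among the 25239 genes of the P-body and cytoplasm table and among the 25229 genes of the polysome table, and 65 of them among the 48440 genes of the Ago2 knockout table. All 71 genes held enough reads for a test in at least 1 of the 17 comparisons, and 70 in at least 1 of the 6 P-body enrichments. The exception there was Eif4e1b, a relative of the cap-binding protein gene, which was tested in polysome and total RNA only. Eif2c5, an older Argonaute-type symbol that the rule takes in by its name, was tested in a single enrichment and held at most 6 reads in any library.

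RNA was measured by sequencing in 36 mouse libraries of 16 groups. Sorted P-bodies and the cytoplasm they were sorted from were each sequenced in 2 libraries per cell type. Per the study's methods, this cytoplasm was a resuspended centrifuge pellet of lysate cleared of nuclei. It still held the P-bodies, and RNA left in the supernatant was not part of it. The cells were naive and primed embryonic stem (ES) cells, mouse embryonic fibroblasts (MEFs), fibroblasts reprogrammed for 3 days either as a control or under Nudt21 knockdown (the day 3 groups), and Ago2 knockout (KO) ES cells. Polysome-bound and total RNA were sequenced in 3 libraries each from control and DDX6 degron ES cells. Per the study's methods, ES cells were of the v6.5 line, kept naive with kinase inhibitors and LIF or primed with activin A and bFGF. MEFs came from mouse embryos, and the reprogrammable fibroblasts carried inducible Oct4, Klf4, Sox2 and Myc and were given doxycycline, so both day 3 groups share that treatment. All sorted cells carried a GFP-LSM14A fusion introduced by lentivirus, whose protein marks P-bodies, cytoplasmic condensates of mRNA and RNA-binding proteins. The Nudt21 knockdown used a single short hairpin sequence, and Ago2 KO and degron lines were single-cell clones. In the degron line, of naive ES cells with GFP-LSM14A, FKBP12 F36V was fused to both copies of Ddx6. Per the study, control and degron libraries both came from this line, with the solvent DMSO in the control and the inducer dTAG-13, which removes the tagged protein within hours, in the degron group. Per the study, the libraries of a group were biological replicates, and each polysome replicate came from plates of its own. Whether the replicates of the sorted fractions came from separate cultures or sorts is not given in the sources used here, so p-values measure the spread between these libraries.

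Translation begins when eIF4F binds the mRNA cap and the small ribosomal subunit arrives carrying eIF3, the scanning factors eIF1 and eIF1A, and eIF2 with the initiator tRNA. The joined complex scans to the start codon, where eIF5 triggers GTP hydrolysis by eIF2 and eIF5B joins the large subunit, after which eEF1A delivers aminoacyl-tRNA and eEF2 moves the ribosome along. Many mRNAs of this machinery carry a 5′ terminal oligopyrimidine (TOP) tract that couples their translation to growth signals through mTOR, and phosphorylation of eIF2 by its kinases lowers initiation under stress.

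The 71 genes together took 1.84% of reads in naive P-bodies and 2.11% in naive cytoplasm (means of 2 libraries), 1.87% and 1.52% in MEFs, and 3.46% and 2.13% in Ago2 KO cells. A single gene, Eif2s2, held 43.4% and 43.9% of these reads in the Ago2 KO P-body libraries, and without it the Ago2 KO shares were 1.95% and 1.78%. Its value in that table is uncertain, as given further on. In total RNA of control ES cells the share was 3.63%, and in their polysomes 3.60% (means of 3). Libraries held 6769727 to 31185799 reads for P-bodies and cytoplasm, 15624342 to 17486206 for Ago2 KO and 13308776 to 29362187 for polysome and total RNA. Nudt21 itself stood at 5.01 to 5.96 CPM, read counts scaled to a common library total, in the 4 knockdown libraries and 89.1 to 115 in the 4 day 3 controls. Ago2 stood at 2.57 to 4.52 CPM in the KO libraries. The degron acts on protein, so Ddx6 mRNA is no check of it. All 24 replicate pairs differed beyond sampling noise, and chi-square over its degrees of freedom ran from 1.82 between the naive P-body libraries to 334 between the Ago2 KO cytoplasm libraries.

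Sequences from the middle of a few coding regions are shown first, because the naive P-body values are described further on by base composition. Each line gives 10 codons 5′ to 3′ on the coding strand from GENCODE M21 on GRCm38.p6, all inside a coding exon, with G or C at the last position of a codon in capitals. The 4 genes shown are Eif2ak2 and Eif3e, higher in naive P-bodies, Eif4ebp1, lower there, and Eef2, which was not called.
Eif2ak2 codons 253 to 262 (chr17:78866362-78866391, minus strand): tttggtcaagttttCaaagcGaaacaCaga
Eif3e codons 218 to 227 (chr15:43265542-43265571, minus strand): tctctatttgtttttttCaaCcatccaaaG
Eif4ebp1 codons 54 to 63 (chr8:27273340-27273369, plus strand): gaCcgGaaatttctGatGgaGtgtcgGaaC
Eef2 codons 425 to 434 (chr10:81180004-81180033, plus strand): ctGaaGgtCcgGatCatGggCccCaaCtaC
In these windows, 3 of the 10 last codon positions of Eif2ak2 and 3 of Eif3e were G or C, against 7 of Eif4ebp1 and 10 of Eef2. Over the whole coding sequences the shares were 41.5%, 43.0%, 69.5% and 74.3%. Such windows need not follow the whole sequence. That of Eif5b, higher in naive P-bodies, held 7 of 10, where its whole coding sequence gave 42.1%. Eif5, also higher there, and Eif4g1, lower there, both held 5 of 10.

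Naive ES cells held the mRNAs for PKR, for the subunit-joining factor eIF5B and for the cap-binding protein at higher levels in P-bodies than in cytoplasm, and those for 4E-BP1 and the eIF4G1 scaffold at lower levels. Of 68 members tested with edgeR's quasi-likelihood test at a Benjamini-Hochberg adjusted p under 0.05, 19 were enriched in P-bodies and 15 depleted. The backgrounds over all 15630 genes tested were 22.6% enriched and 15.4% depleted, 38% together. The median log2 fold change of the members was -0.08 and that of all genes -0.06. Genes with a mean of at least 10 CPM, as most members are, were called more often. At that level 29.2% of 65 members were enriched and 23.1% depleted, beside 30.8% and 20.1% of all 9496 genes.

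Eif2ak2, which encodes PKR, the eIF2 kinase activated by double-stranded RNA, had the highest ratio. It measured 99.6 and 91.0 CPM in naive P-bodies, against 13.3 and 19.6 CPM in naive cytoplasm. The 4 values do not overlap between fractions, with a log2 fold change of 2.76 ± 0.19 (SE; edgeR adjusted p = 0.000549). Eif5a2, the less common eIF5A paralog, measured 46.5 and 44.8 CPM in naive P-bodies and 5.95 and 17.4 in cytoplasm (2.20 ± 0.44, edgeR adjusted p = 0.0144). Its cytoplasm libraries thus differed from each other by about as large a ratio as the higher of them from the P-bodies. Eif5b, the GTPase that joins the large subunit, measured 333 and 345 CPM in naive P-bodies and 96.1 and 99.1 in cytoplasm (2.02 ± 0.10, edgeR adjusted p = 0.000414). Eif5, the GTPase activator of eIF2, measured 791 and 812 CPM against 237 and 283, and Eif4e, the cap-binding protein, 448 and 453 against 147 and 187. On the low side, Eif4ebp1, which encodes the 4E-BP1 repressor of eIF4E, measured 425 and 419 CPM in naive P-bodies and 1477 and 1107 in cytoplasm (-1.40 ± 0.18, edgeR adjusted p = 0.00317). Eif4g1, the scaffold that bridges eIF4E and eIF3, measured 374 and 362 CPM against 799 and 668 (-0.78 ± 0.14, edgeR adjusted p = 0.00989).

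The naive count depended on single libraries. It fell to 11 and 12 called members when P-body replicate 1 or 2 was left out, and rose to 52 and 51 without cytoplasm replicate 1 or 2. Among the genes that were followed one by one, Eif2ak2, Eif5b, Eif5, Eif4e, Eif3a, Eif3e and Eif4ebp1 were called in every one of these 4 fits. Eif5a2 lost its call without P-body replicate 1 (2.18, edgeR adjusted p = 0.0507). The naive calls of Eif4g1, Eif4b, Eif2s2, Eif2s3x, Eif2b5, Eif2ak3, Eif3f, Eif1, Eif1ax and Eif5a were lost without either P-body replicate, with the same sign.

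**Figure D1:**
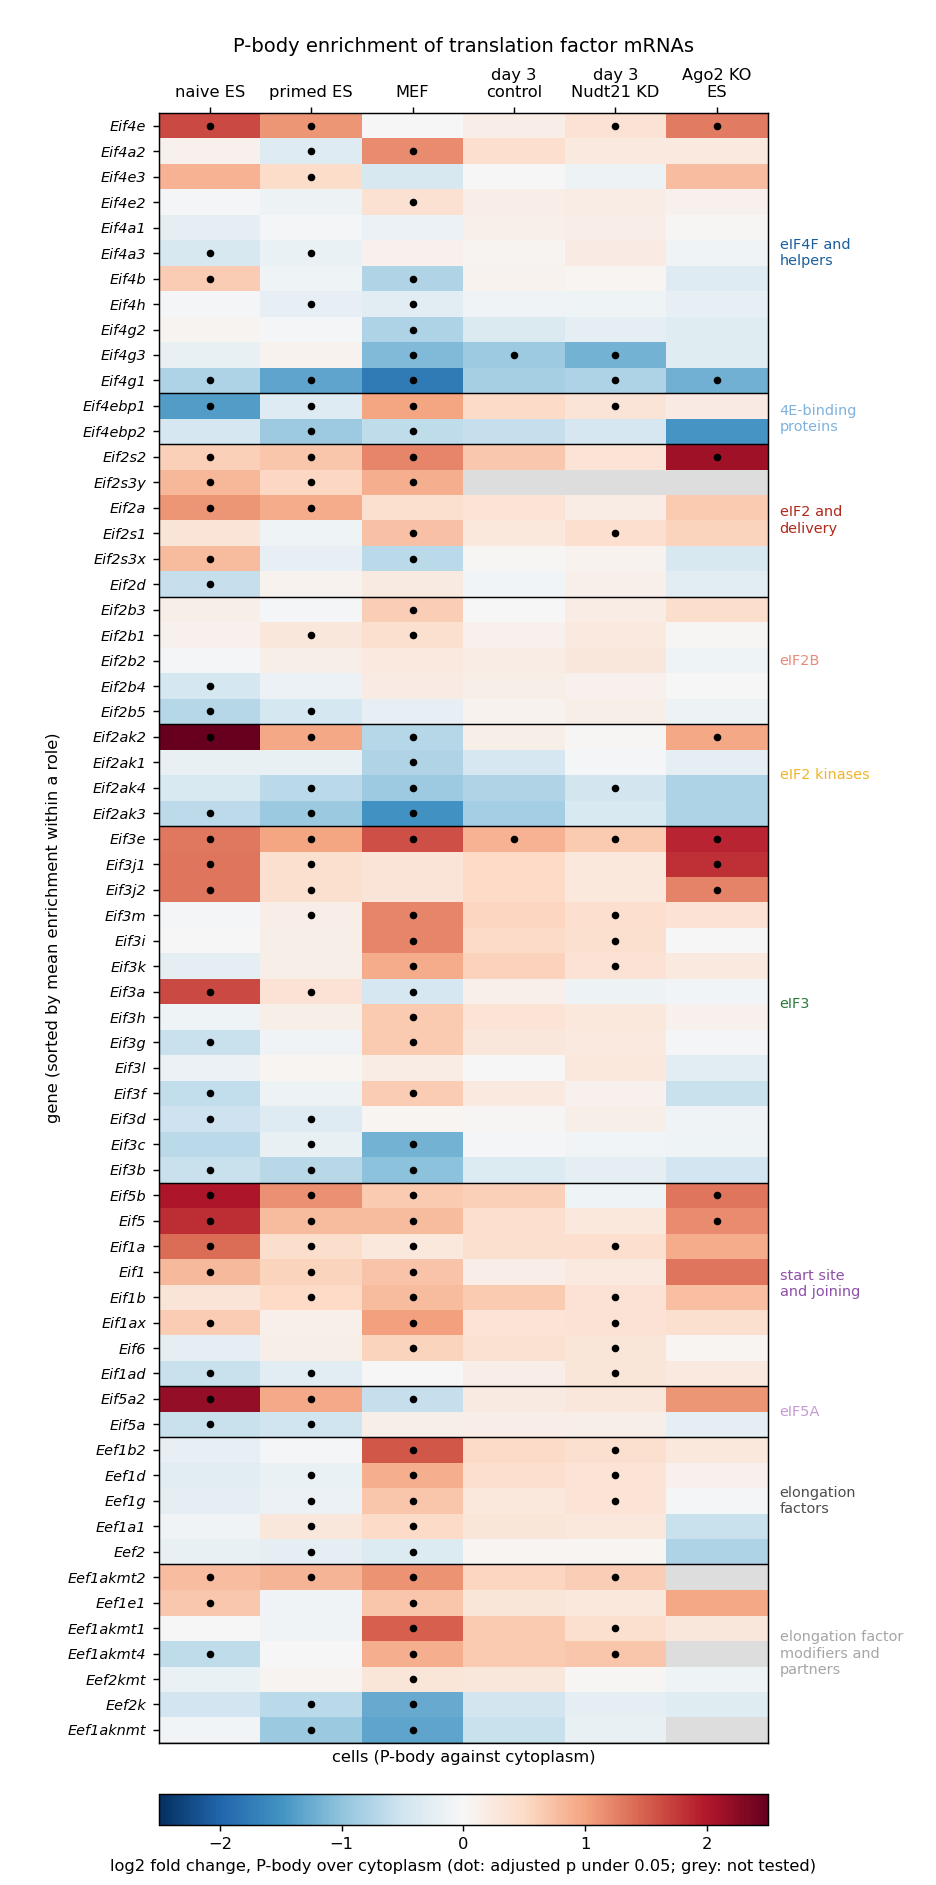
P-body over cytoplasm log2 fold change (colour) of 64 translation factor genes with a mean of at least 10 CPM in at least 1 of the 6 comparisons (rows, grouped by role) in 6 cell types (columns). Dots mark an adjusted p under 0.05 and grey cells were not tested; Eif3e is called in all 6 columns and Eif4g1 is below 0 in all 6.

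Primed ES cells gave 20 enriched and 20 depleted members of 67, over backgrounds of 26.5% and 24.2% (50.7% together), with a median log2 fold change of -0.03 for members and 0.00 for all genes. At a mean of at least 10 CPM, 30.3% of 66 members were enriched and 30.3% depleted, beside 34.7% and 29.7% of all genes. Several members called in naive cells were called here too with smaller values. Eif2ak2 measured 41.8 and 41.3 CPM in primed P-bodies and 18.8 and 24.6 in cytoplasm (0.96 ± 0.13, edgeR adjusted p = 4.73e-05), and Eif4ebp1 273 and 255 against 361 and 319 (-0.33 ± 0.07, edgeR adjusted p = 0.00113). Eif4g1 measured 237 and 262 CPM in primed P-bodies and 636 and 638 in cytoplasm, the lowest ratio of the primed members (-1.32 ± 0.06, edgeR adjusted p = 1.98e-09).

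The test of the difference between naive and primed enrichment called 22 of 68 members. The background was 25.3% of all genes, 13.9% with the higher ratio in naive cells and 11.4% with the lower. With a mean of at least 10 CPM, 15.2% of members were higher and 18.2% lower, beside 21.5% and 16.4% of all genes. The ratio was higher in naive cells for 10 members and lower for 12, and DESeq2 gave 14 and 7, while edgeR with DESeq2's size factors gave 13 and 7. The difference was 1.65 ± 0.25 for Eif2ak2 (edgeR adjusted p = 0.00195), 1.15 ± 0.13 for Eif3a and 0.92 ± 0.12 for Eif5, and -1.21 ± 0.20 for Eif4ebp1. Leaving out single libraries moved the count of 22 to between 10 (without naive P-body replicate 2) and 47 (without naive cytoplasm replicate 2), and 11 to 13 were called without naive P-body replicate 1 or either primed P-body replicate, 13 without primed cytoplasm replicate 1, and 40 without naive cytoplasm replicate 1. Eif4ebp1, Eif2s3x, Eif2ak2, Eif3a, Eif5 and Eif5b were called in all 8 of these fits.

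In MEF P-bodies the pattern was a different one. Among the enriched mRNAs were 4 of 5 tested elongation factor genes, 7 of 14 eIF3 genes and 7 of 8 start-site and joining factor genes, and among the depleted ones were those of all 4 eIF2 kinases, of the eIF4G scaffolds and of the eIF3 subunits Eif3a, Eif3b and Eif3c. Eef2 was the depleted elongation factor, and Eif3d, Eif3l and Eif1ad, for example, were not called. Of 68 members, 31 were enriched and 18 depleted, where all genes gave 26.6% and 28.7% (55.3% together). The members' median log2 fold change was 0.29 and that of all genes 0.03. Of 63 members with a mean of at least 10 CPM, 49.2% were enriched and 27.0% depleted, beside 33.9% and 39.6% of all genes. Eif3e measured 1322 and 988 CPM in MEF P-bodies and 325 and 418 in cytoplasm (1.62 ± 0.15, edgeR adjusted p = 2.62e-05). Eef1b2, the exchange factor that recharges eEF1A with GTP, measured 571 and 476 CPM against 166 and 188 (1.55 ± 0.11, edgeR adjusted p = 7.03e-06). Eif4g1 measured 161 and 147 CPM in MEF P-bodies and 529 and 507 in cytoplasm (-1.76 ± 0.09, edgeR adjusted p = 2.44e-06), and Eif2ak3, which encodes the endoplasmic reticulum stress kinase PERK, 15.9 and 12.1 against 37.5 and 41.7 (-1.52 ± 0.15). Summed markers of lung epithelium came to 5.81 and 87.8 CPM in MEF P-bodies and to 0 in both MEF cytoplasm libraries, and summed fibroblast markers to 10204 to 10737 CPM in P-bodies and 32578 to 35681 in cytoplasm. Whether other cells took part in the MEF values was not tested.

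Naive cells and MEFs were compared by an interaction test over their 8 libraries. Of 68 members, 16 had the higher ratio in naive cells and 32 the lower, over backgrounds of 21.5% and 19.8% (41.3% together). The members' median difference was -0.48 and that of all genes -0.17. Restricted to a mean of at least 10 CPM, the shares were 24.6% and 49.2% of members, beside 34.1% and 28.4% of all genes. Eif2ak2 changed sides, with 28.6 and 31.1 CPM in MEF P-bodies below 49.0 and 47.8 in MEF cytoplasm (-0.71 ± 0.10, edgeR adjusted p = 0.000349), and its difference was 3.28 ± 0.22 (edgeR adjusted p = 9.24e-06). Eif5a2 (difference 2.59 ± 0.48), Eif3a (1.89 ± 0.19), Eif2s3x (1.29 ± 0.14) and Eif4b (1.18 ± 0.19) were likewise enriched in naive P-bodies and depleted in MEF P-bodies. In the opposite direction, Eif4ebp1 was depleted in naive P-bodies and measured 585 and 621 CPM in MEF P-bodies against 294 and 304 in cytoplasm (0.99 ± 0.08), a difference of -2.58 ± 0.20 (edgeR adjusted p = 1.51e-05). Counting calls in both cell types, 10 members were enriched in both, 3 depleted in both, 5 enriched in naive cells and depleted in MEFs, and 4 the reverse. As shares of the 68 members these are 14.7%, 4.41%, 7.35% and 5.88%, beside 6.46%, 5.98%, 8.54% and 4.41% of the 13982 genes tested in both. Without MEF cytoplasm replicate 1 or 2 the count of 48 called members fell to 32 and 33.

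**Figure D2:**
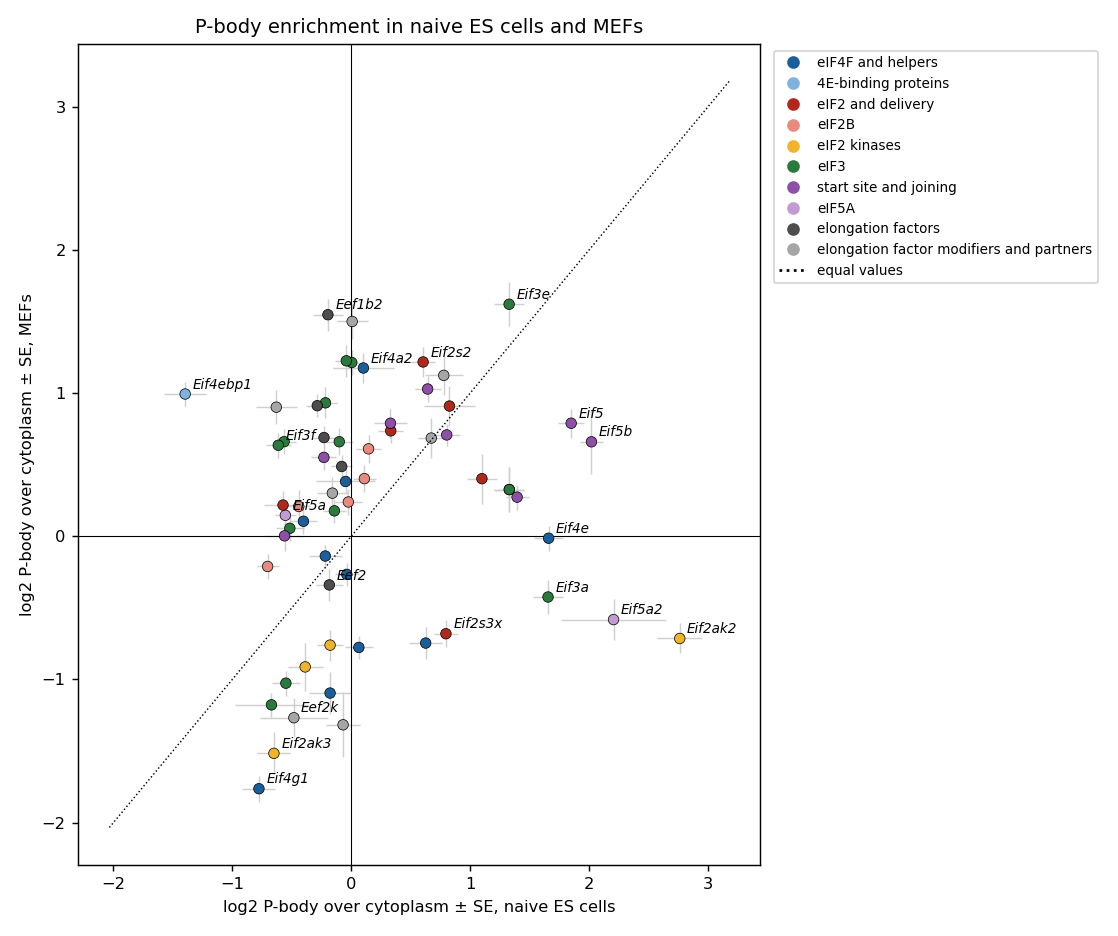
P-body over cytoplasm log2 fold change ± SE of 62 members in naive ES cells (horizontal) and MEFs (vertical), coloured by role, with a dotted line of equal values. Eif2ak2, Eif5a2 and Eif3a lie at the lower right and Eif4ebp1 at the upper left, while Eif3e lies high on both axes and Eif4g1 low on both.

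At day 3 of reprogramming the fraction differences were smaller. The control called 1 member in each direction of 68, over backgrounds of 0.196% and 0.45% (0.646% together). Both calls were at the edge of the threshold. Eif3e measured 431 and 429 CPM in day 3 P-bodies and 249 and 226 in cytoplasm (0.87 ± 0.11, edgeR adjusted p = 0.0495), and Eif4g3, a second eIF4G scaffold, 67.8 and 62.5 against 125 and 121 (-0.90 ± 0.12, edgeR adjusted p = 0.0495). The count of 2 became 47 and 38 without day 3 P-body replicate 1 or 2 and 0 without either cytoplasm replicate, and DESeq2 called 20. DESeq2 also called more of all genes, 2105 beside 102 by edgeR's quasi-likelihood test. The median log2 fold change was 0.17 for the members and -0.01 for all genes. Above the mean of 10 CPM, 1.59% of members were called in each direction, beside 0.310% and 0.734% of all genes.

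With the Nudt21 knockdown, 18 members were enriched and 3 depleted of 69, over backgrounds of 9.04% and 12.8% (21.9% together), and the members' median was 0.19 against 0.00 for all genes. The depleted genes were Eif4g3 (45.6 and 52.8 CPM in P-bodies, 111 and 115 in cytoplasm, -1.19 ± 0.11, edgeR adjusted p = 0.000133), Eif4g1 (-0.76 ± 0.09) and Eif2ak4, the amino acid starvation kinase GCN2 (-0.47 ± 0.10). Without P-body replicate 2 the 21 calls became 38, and without cytoplasm replicate 1 or 2 they became 4 and 3. Eif4g1, Eif4g3 and Eif3e were called in all 4 such fits. No member differed in enrichment between knockdown and control by edgeR's quasi-likelihood test (0 of 69, 2 at an unadjusted p under 0.05, background 0% higher and 0.0118% lower), and DESeq2 also called 0. Leaving out day 3 control P-body replicate 1 gave 10 calls.

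The day 3 control and MEF enrichments differed in 15 of 69 members, 8 higher at day 3 and 7 lower, over backgrounds of 9.59% and 5.13% (14.7% together). Members with a mean of at least 10 CPM gave 12.7% and 11.1%, beside 15.8% and 7.88% of all such genes. Eif3c, a core scaffold subunit of eIF3, gave the highest called difference of the members with a mean of at least 10 CPM, 1.17 ± 0.13 (edgeR adjusted p = 0.000966). Its MEF values were 198 and 186 CPM in P-bodies and 430 and 429 in cytoplasm, and its day 3 values 416 and 397 against 420 and 430. Eef1b2 gave the lowest (-1.02 ± 0.18, edgeR adjusted p = 0.00567). The count of 15 fell to 3 and 5 without MEF cytoplasm replicate 1 or 2 and to 2 and 1 without day 3 cytoplasm replicate 1 or 2, and rose to 35 without day 3 P-body replicate 2. Eif3c was called in all 8 such fits.

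In Ago2 KO ES cells 8 members were enriched and 1 depleted of 61, where all genes gave 5.47% and 1.05% (6.51% together). The medians were 0.04 for members and 0.04 for all genes. Members with a mean of at least 10 CPM gave 13.6% and 1.69%, beside 8.70% and 1.59% of all such genes. Eif3e measured 1043 and 1030 CPM in Ago2 KO P-bodies and 316 and 232 in cytoplasm (1.90 ± 0.30, edgeR adjusted p = 0.00758). Eif2s2, the beta subunit of eIF2, measured 15226 and 14952 CPM against 4919 and 2037 (2.11 ± 0.41, edgeR adjusted p = 0.0198). In the other table it measured 813 and 839 CPM in naive P-bodies. The Ago2 KO table holds salmon estimates, which divide reads shared with near-identical copies, and its annotation and settings are not given in the sources used here, so its Eif2s2 value is uncertain. Eif4g1, with 58.4 and 77.4 CPM in P-bodies and 128 and 172 in cytoplasm, was the depleted gene (-1.19 ± 0.30, edgeR adjusted p = 0.0482). A single member was called without P-body replicate 1 and without replicate 2 (1 each), and 27 and 13 were called without cytoplasm replicate 1 or 2. Eif3e gave 1.88 and 1.91 without each P-body replicate, Eif4g1 -1.01 and -1.40 and Eif2ak2 0.98 and 0.97, none of them called then, and Eif2s2 lost its call without P-body replicate 2 (2.14, edgeR adjusted p = 0.0628). Libraries of the same number deviated together between the fractions (correlation 0.65), and a replicate block called more members, as given in the last section. No Ago2 wild-type libraries share the Ago2 KO table, so no test compared KO with wild type. Eif2s3y held 0 to 3 reads in the 4 Ago2 KO libraries and 238 to 686 in naive and primed libraries. The Y-linked genes Ddx3y, Uty and Kdm5d together held 0 to 4 reads in Ago2 KO libraries, 788 to 5687 in naive and primed and 203 to 542 in control and degron libraries. The Ago2 KO cells thus differed from the other ES cells in Y-linked reads as well as in genotype and table, and these cannot be told apart in values set side by side.

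**Figure D3:**
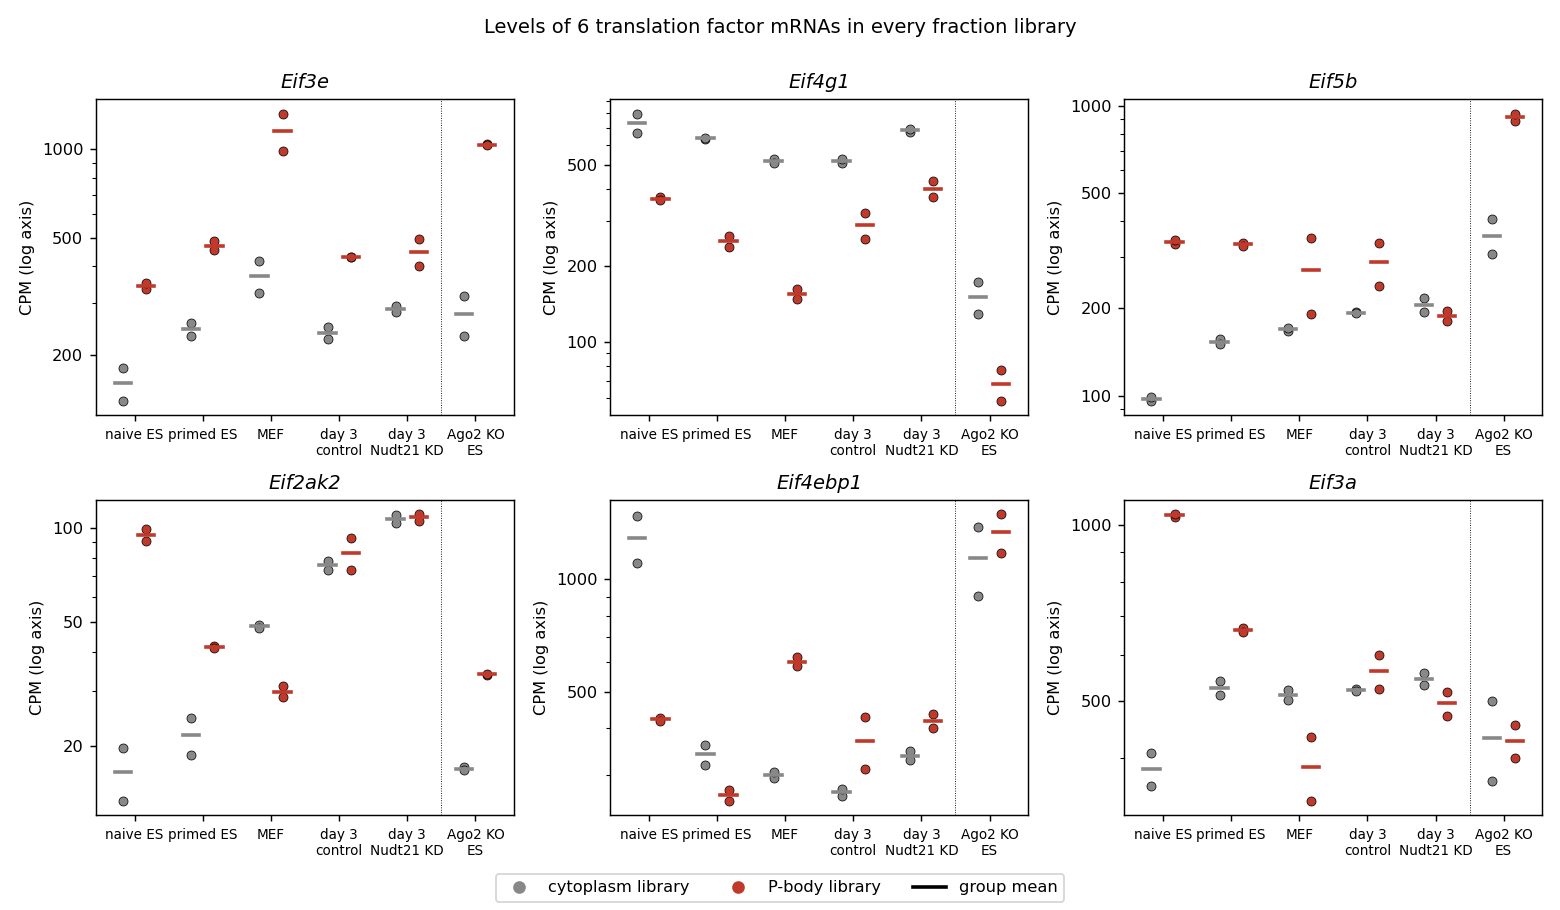
CPM (log axis) of Eif3e, Eif4g1, Eif5b, Eif2ak2, Eif4ebp1 and Eif3a in every P-body library (red) and cytoplasm library (grey) of 6 cell types, with bars at the mean of 2 libraries; the dotted line separates the Ago2 KO table. P-body points lie above the cytoplasm points for Eif3e in every cell type and below them for Eif4g1 in every cell type, while Eif2ak2 and Eif3a are reversed between naive cells and MEFs.

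Over the 6 enrichment comparisons, which share no library, 29 of the 70 tested members were enriched at least once and never depleted, 21 were depleted at least once and never enriched, 13 were called in both directions and 7 were never called. As shares these are 41.4%, 30%, 18.6% and 10%, where the 18878 genes tested in at least 1 of the 6 gave 27.7%, 27.4%, 15.5% and 29.4%. With a mean of at least 10 CPM in at least 1 comparison, the shares were 43.9%, 31.8%, 19.7% and 4.55% of 66 members and 33.6%, 33.9%, 23.1% and 9.4% of 11968 genes. Eif3e was called enriched in all 6, as were 17 of all genes (0.0901%).

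By role, the cap-binding complex eIF4F, its helpers and related Eif4 genes (11 genes together) divided. In naive P-bodies 2 were enriched and 2 depleted, in primed 2 and 4, and in MEFs 2 and 5. These counts take in relatives outside eIF4F itself, such as Eif4a3 and Eif4e2. Eif4e2 was 1 of the 2 enriched in MEFs (0.38 ± 0.09). All genes gave 22.6% enriched and 15.4% depleted in naive cells, 26.5% and 24.2% in primed cells and 26.6% and 28.7% in MEFs. No role was tested as a set, so counts by role here and below are descriptions only. Eif4e was enriched in naive cells, primed cells (1.10 ± 0.05), Ago2 KO cells (1.29 ± 0.30, edgeR adjusted p = 0.0367) and with the Nudt21 knockdown (0.36 ± 0.11), whereas in MEFs its value was -0.01 ± 0.09 (edgeR adjusted p = 0.901). Eif4a1, the main eIF4A helicase gene, was not called in any of the 6 comparisons (log2 fold changes -0.22 to 0.16). Its paralog Eif4a2 was depleted in primed P-bodies (-0.33 ± 0.06) and enriched in MEF P-bodies, with 277 and 247 CPM against 106 and 123 in cytoplasm (1.17 ± 0.10, edgeR adjusted p = 1.89e-05). In naive cytoplasm Eif4a2 measured 152 and 277 CPM, so that its naive value of 0.10 ± 0.25 rested on libraries that disagreed. Eif4g2, a scaffold that lacks the eIF4E-binding part, and Eif4b, which stimulates the helicase, were depleted in MEFs (-0.78 ± 0.08 and -0.75 ± 0.11), and Eif4b was enriched in naive P-bodies (0.63 ± 0.14).

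Among the 6 genes of eIF2 and tRNA delivery, 4 were enriched and 1 depleted in naive P-bodies (median 0.70), and 3 were enriched and 1 depleted in MEFs (median 0.57). Eif2s2 was enriched in naive, primed and MEF P-bodies (0.60 ± 0.10, 0.68 ± 0.06 and 1.22 ± 0.11). Eif2s3x, the X-linked gamma subunit, was enriched in naive P-bodies (0.80 ± 0.10), depleted in MEF P-bodies (-0.68 ± 0.10) and not called in primed cells (-0.20 ± 0.08, edgeR adjusted p = 0.0516). Its Y-linked copy Eif2s3y was enriched in all 3. The pair differ in 2 bases, both at last codon positions, across codons 232 to 241. Reads confined to that window would be hard to tell apart, but the reads of the study's methods were longer. Over the whole coding sequence 39.5% and 28.1% of last codon positions were G or C. In day 3 control cytoplasm, Eif2s3x had a TMM-scaled mean of 152 CPM and Eif2s3y held 0 reads in each library. How many reads the pair share over the whole genes was not tested.
Eif2s3x codons 232 to 241 (chrX:94202863-94202892, minus strand): attgaagttgtCtgtgaGtatatagtGaaG
Eif2s3y codons 232 to 241 (chrY:1016113-1016142, plus strand): attgaagttgtatgtgaGtatatagtaaaG

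The guanine exchange factor eIF2B (5 genes) gave 2 depleted members in naive P-bodies and 2 enriched in MEFs. All 5 had the lower ratio in naive cells by the interaction test, with a median difference of -0.65. The lower ratio was called for 19.8% of all genes and 47.1% of all members. Of the 4 eIF2 kinases, Eif2ak2 was enriched in naive, primed and Ago2 KO P-bodies (Ago2 KO 0.97 ± 0.23, edgeR adjusted p = 0.0424), and all 4 were depleted in MEFs, including Eif2ak1, the heme-regulated kinase HRI, with 35.7 and 40.7 CPM in P-bodies and 65.6 and 62.2 in cytoplasm. Eif2ak3 was depleted in naive (-0.65 ± 0.14), primed (-0.92 ± 0.10) and MEF cells, so the kinase genes differed in direction within ES cells.

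The eIF3 complex (14 genes) was split subunit by subunit. Naive P-bodies held 4 enriched and 4 depleted members, and MEFs 7 and 3. The highest naive value was that of Eif3a, the largest scaffold subunit, with 1031 and 1043 CPM in P-bodies and 408 and 359 in cytoplasm (1.65 ± 0.12, edgeR adjusted p = 0.000664), which in MEFs measured 338 and 435 against 523 and 502 (-0.42 ± 0.12, edgeR adjusted p = 0.0119). Eif3e stood at 1.33 ± 0.13 in naive cells. The MEF call of Eif3a was lost without either MEF cytoplasm replicate (-0.37 and -0.44). The RNA-binding subunit gene Eif3b was depleted in naive (-0.55 ± 0.12), primed (-0.69 ± 0.05) and MEF P-bodies (-1.03 ± 0.09). Eif3f was depleted in naive cells (76.1 and 69.2 CPM against 125 and 135) and enriched in MEFs (115 and 117 against 74.3 and 73.6), a difference of -1.44 ± 0.14 (edgeR adjusted p = 3.86e-05). Naive cytoplasm held Eif3c at 1231 and 668 CPM, and its naive value of -0.67 ± 0.31 missed the threshold (edgeR adjusted p = 0.141). Eif3j1 and Eif3j2 had identical counts in the P-body and cytoplasm table and are uncertain, since reads of near-identical copies were shared. The pair is thus 1 measurement entered as 2 members in every count of those libraries. It makes up 2 of the 4 eIF3 genes enriched in naive cells, and also enters the 19 enriched members there.

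Of the start-site and joining factors (8 genes), 5 were enriched in naive cells, 5 in primed cells, 7 in MEFs, 5 with the Nudt21 knockdown and 2 in Ago2 KO cells, and 1 was depleted in naive and in primed cells. That member was Eif1ad, an eIF1A-like gene. Of all genes, 9.04% were enriched with the knockdown and 5.47% in Ago2 KO cells, beside the naive, primed and MEF shares given above. Eif1, the start codon fidelity factor, measured 766 and 754 CPM in naive P-bodies and 462 and 558 in cytoplasm (0.80 ± 0.11), and was enriched in primed cells (0.56 ± 0.04) and MEFs (0.71 ± 0.08). Eif5b was enriched in naive, primed, MEF and Ago2 KO P-bodies. In MEFs its P-body libraries measured 191 and 351 CPM against 167 and 172 in cytoplasm (0.66 ± 0.22, edgeR adjusted p = 0.031), and this call was kept in 1 of 4 fits that left out a library, with values of 0.17 to 1.03.

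The eIF5A paralogs, which help ribosomes through stretches that stall them, went opposite ways in ES cells. Eif5a was depleted in naive (-0.55 ± 0.09) and primed P-bodies (-0.49 ± 0.04), where Eif5a2 was enriched, and in MEFs Eif5a2 was depleted (-0.58 ± 0.14, edgeR adjusted p = 0.00721). Over the whole coding sequence, 56.1% of last codon positions were G or C in Eif5a and 44.2% in Eif5a2.

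Elongation factor genes were near even in naive cells, with 0 of 5 called in either direction, and 4 of 5 were enriched in MEFs (median 0.69). Eef1a1 measured 2337 and 2415 CPM in naive P-bodies and 2919 and 2943 in cytoplasm (-0.08 ± 0.09), and 2900 and 3292 against 2208 and 2157 in MEFs (0.49 ± 0.08). Eef2, the translocase, measured 859 and 849 CPM in naive P-bodies and 1195 and 1066 in cytoplasm, and was depleted in primed cells (-0.22 ± 0.04) and MEFs (-0.34 ± 0.11, edgeR adjusted p = 0.027). The MEF call of Eef2 was kept in 1 of 4 fits that left out a library. The difference of Eef1b2 between naive cells and MEFs was -1.93 ± 0.19 (edgeR adjusted p = 4.19e-05). Eef2k, the kinase that inhibits eEF2, was depleted in primed cells (-0.67 ± 0.15) and MEFs (-1.27 ± 0.14). Eef1a2, the muscle and neuron form of eEF1A, held at most 0.426 CPM in any library. The 10 members known as TOP messages counted 3 enriched and 1 depleted in naive cells (median -0.14) and 7 and 3 in MEFs (median 0.65). Of the wider pathway, 30 partner genes outside the symbol rule, such as mTOR signalling and cap-regulating genes, gave 7 enriched and 5 depleted in naive cells (23.3% and 16.7%, where all genes gave 22.6% and 15.4%) and 11 and 11 in MEFs (36.7% each, where all genes gave 26.6% and 28.7%). Among them were Rps6kb1 (2.28 ± 0.16 in naive cells), which encodes the S6 kinase, Ddx3x (1.77 ± 0.10), Paip2b (-1.43 ± 0.22), Mtor (-0.77 ± 0.13 in naive cells) and, in MEFs, Tpt1 (1.24 ± 0.09) and Gigyf2 (-1.80 ± 0.11).

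Per kilobase of the longest transcript, levels in naive cytoplasm were highest for Eef1a1 at 1634 ± 9.60 CPM per kb (SD, n = 2), followed by Eif4a1 at 882 ± 190 and Eif5a at 864 ± 40.1, and these last 2 differed by less than their spread. Eif2ak2 stood at 3.82 ± 1.03 and Eif5a2 at 2.33 ± 1.61, also within their spread of each other. With the median transcript length in place of the longest, the Eef1a1 and Eif5a levels moved by more than 1 SD.

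Cytoplasm libraries, of the pelleted fraction before sorting, also compared the cell types with each other. Whether the share of an mRNA that entered the pellet differed between cell types was not tested. Between naive and primed cytoplasm, 26 members were higher in naive cells and 8 lower of 68, over backgrounds of 22.1% and 21.6% (43.8% together). The members' median was 0.30 and that of all genes 0.00. Eif4ebp1 measured 1477 and 1107 CPM in naive and 361 and 319 in primed cytoplasm (2.13 ± 0.19, edgeR adjusted p = 0.000812), and Eif2s2 586 and 685 against 230 and 210 (1.73 ± 0.12, edgeR adjusted p = 0.000391). Eif5a2 was lower, with 5.95 and 17.4 CPM against 45.1 and 50.8 (-1.85 ± 0.44, edgeR adjusted p = 0.0188). The 34 calls fell to 5 and 6 without primed cytoplasm replicate 1 or 2 and rose to 46 and 51 without naive cytoplasm replicate 1 or 2. Eif4ebp1, Eif2s2 and Eif2b5 (1.33 ± 0.11) were called in all 4 such fits. In bulk RNA, fewer cells of a type and less RNA per cell cannot be told apart.

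Day 3 cytoplasm compared with MEF cytoplasm gave 34 members higher and 18 lower of 69, over backgrounds of 35.5% and 33.7% (69.3% together) and with medians of 0.28 and 0.04. Restricted to a mean of at least 10 CPM, the shares were 52.4% and 27.0% of members, beside 41.2% and 38.4% of all genes. Eef2k measured 224 and 228 CPM at day 3 and 63.1 and 57.3 in MEFs (1.75 ± 0.07, edgeR adjusted p = 2.49e-12). Eif3f (1.06 ± 0.06), Eef2 (0.86 ± 0.05) and Eef1a1 (0.79 ± 0.05) were also higher, and Eif5a2 (-1.30 ± 0.11), Eif1a (-0.85 ± 0.06) and Eif3e (-0.81 ± 0.09) lower. Eif2s3y held 1289 and 1370 reads in MEF cytoplasm (43.4 ± 2.92 CPM, SD, n = 2) and 0 in both day 3 control cytoplasm libraries, at least 376-fold lower against a floor of 3 reads per library. The Y-linked genes Ddx3y, Uty and Kdm5d together held 3908 to 7041 reads in MEF libraries and 0 to 8 in day 3 libraries, and Xist 0 to 2 and 400 to 1551. The origin of the cells and the treatment therefore cannot be told apart in any day 3 comparison with MEFs.

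Day 3 cytoplasm with the Nudt21 knockdown gave 23 members higher and 17 lower than the day 3 control of 68, beside backgrounds of 24.6% and 25% (49.6% together). Members with a mean of at least 10 CPM gave 34.9% and 25.4%, beside 31.3% and 29.7% of all such genes. Eif4a2 measured 184 and 181 CPM with the knockdown and 88.5 and 76.9 in the control (1.13 ± 0.08, edgeR adjusted p = 2.28e-09), Eif2ak4 82.5 and 84.1 against 45.5 and 37.9 (0.98 ± 0.09) and Eif4b 601 and 586 against 410 and 383 (0.56 ± 0.06). Eif3f was lower, with 133 and 123 CPM against 172 and 173 (-0.45 ± 0.07, edgeR adjusted p = 2.85e-05). When all groups of the table shared 1 estimate of the spread, 14 members were called. The 5 fibroblast markers summed to 1609 to 1641 CPM in knockdown and 5224 to 5362 in control cytoplasm, and the 5 pluripotent markers to 712 to 825 and 322 to 332. The part of this shift in the members' values was not tested.

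Ribosome occupancy, the ratio of polysome-bound to total RNA, divided the same genes by size. In control ES cells 20 members were higher in polysomes and 22 lower of 69, over backgrounds of 18.8% and 24.1% (42.9% together). With a mean of at least 10 CPM, 31.25% of members were higher and 32.8% lower, beside 27.8% and 35.0% of all genes. Eif5b measured 49.4, 50.8 and 52.6 CPM in polysomes and 225, 210 and 192 in total RNA (-2.21 ± 0.07, edgeR adjusted p = 1.05e-12). Eif3c measured 134, 128 and 132 CPM against 488, 511 and 446 (-2.04 ± 0.07), and Eif4g1 190, 181 and 176 against 622, 634 and 618 (-1.94 ± 0.06). For these genes every polysome library lay under every total RNA library. Eif3a (-1.64 ± 0.08), Eif3b (-1.24 ± 0.07), Eif4g3 (-0.98 ± 0.08) and Eef2 (-0.58 ± 0.07) followed. Among the genes higher in polysomes, Eif4e measured 467, 465 and 546 CPM against 342, 324 and 303 (0.44 ± 0.08, edgeR adjusted p = 0.000252), Eif1 792, 831 and 729 against 496, 506 and 541 (0.44 ± 0.06) and Eif5a2 33.0, 35.2 and 35.0 against 25.0, 24.2 and 20.4 (0.40 ± 0.08).

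By role, start-site and joining factors gave 5 higher and 1 lower of 8, eIF3 1 higher and 6 lower of 14, eIF2B 0 and 3 of 5, and the TOP messages 0 higher and 5 lower of 10. The single higher eIF3 gene was Eif3j2 (0.62 ± 0.23), whose near-identical copy Eif3j1 had the opposite sign (-0.86 ± 0.40), so both are uncertain. Of the 30 partner genes, 7 were higher in polysomes and 11 lower (23.3% and 36.7%, where all genes gave 18.8% and 24.1%).

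After DDX6 removal, 20 members were higher in polysomes and 29 lower of 68, over backgrounds of 24% and 26.8% (50.9% together). Members with a mean of at least 10 CPM gave 31.25% and 43.75%, beside 34.7% and 38.6% of all such genes. The values stood next to the control ones, with -2.13 ± 0.06 for Eif5b, -2.21 ± 0.06 for Eif3c, -1.87 ± 0.04 for Eif4g1 and 0.46 ± 0.04 for Eif1. The interaction test of the change in occupancy called 0 of 69 members by edgeR's quasi-likelihood test (smallest adjusted p 0.879, background 0%), and DESeq2 also called 0. At an unadjusted p under 0.05 there were 6, Eif4b, Eif3d, Eef2, Eif3b, Eif2b2 and Eef1aknmt. For Eef2 the change was -0.20 ± 0.07, from polysome values of 2335, 2314 and 2385 CPM in control and 2078, 2106 and 2141 in degron cells, with total RNA at 2974, 2983 and 3393 and at 3134, 3215 and 3174.

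**Figure D4:**
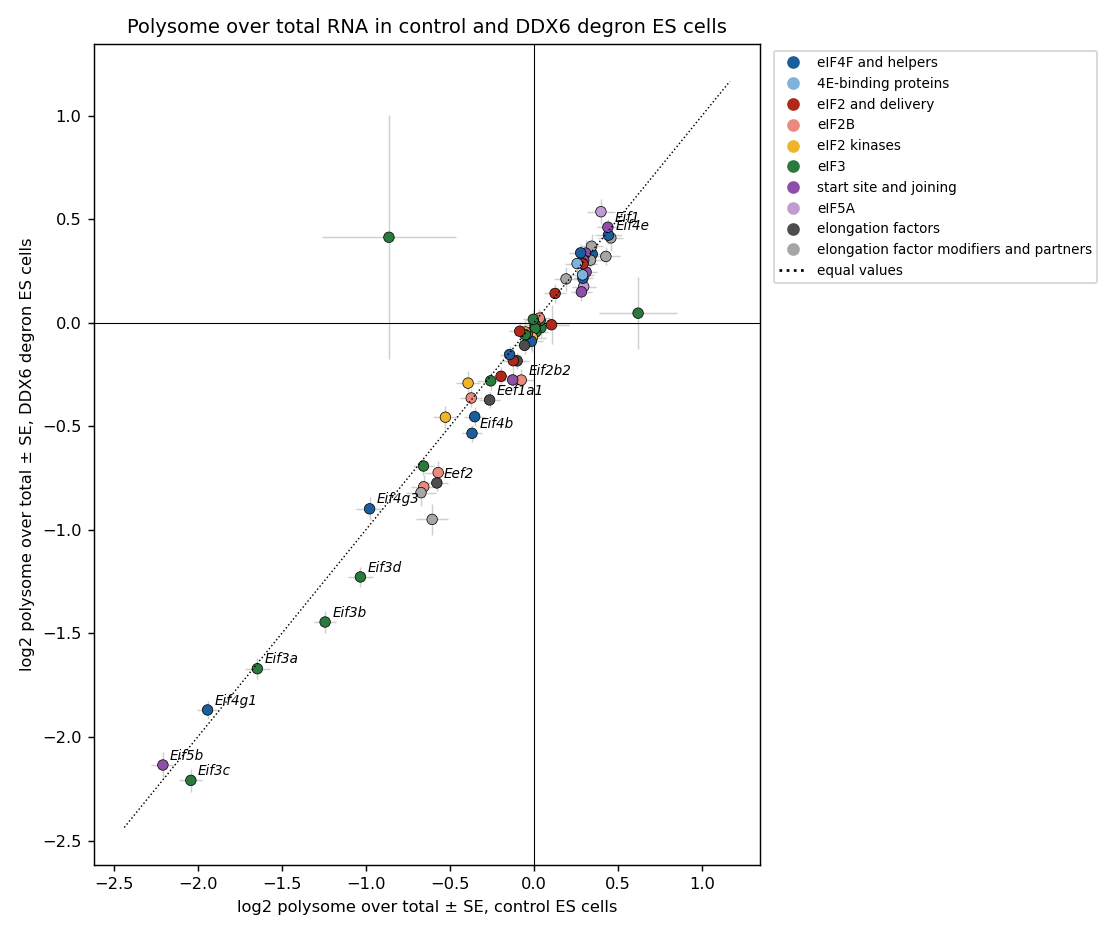
Polysome over total RNA log2 fold change ± SE of 63 members in control (horizontal) and DDX6 degron ES cells (vertical), coloured by role, with a dotted line of equal values. Points follow the line from Eif5b, Eif3c and Eif4g1 at the lower left to Eif1 and Eif4e at the upper right, and the 2 points with wide error bars away from it are Eif3j1 and Eif3j2.

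In total RNA, 2 of 68 members changed after DDX6 removal, over backgrounds of 1.24% higher and 2.07% lower (3.31% together). Restricted to a mean of at least 10 CPM, 1.56% of members were called in each direction, beside 1.80% and 3.30% of all genes. Eif1 measured 655, 654 and 632 CPM in degron cells and 496, 506 and 541 in control cells (0.33 ± 0.05, edgeR adjusted p = 0.00719), and Eif4b 598, 592 and 631 against 734, 728 and 701 (-0.25 ± 0.05, edgeR adjusted p = 0.0165). In both cases the 3 degron libraries lay clear of the 3 control libraries. Neither gene was called with a replicate block, though the labels do not say what equal replicate numbers mark. Eif1 was called in 5 of 6 fits that left out a library and Eif4b in 2 of 6. The count of 2 was 0 without degron total RNA replicate 1, 1 without degron replicate 2 or control replicates 1 or 2, and 18 without control replicate 3.

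Sequence features of the members tracked these measurements to different degrees in different cells. In naive P-bodies, log2 enrichment and the G and C content of the coding sequence had a Spearman correlation of -0.75 across 61 members and -0.63 across 9171 genes of at least 10 CPM. The 19 enriched members had a median coding G and C content of 44.2% (39.8% to 53.8%), the 14 depleted ones with a value 53.9% (50.1% to 62.1%) and the 28 not called 51.1%. The same correlation was -0.58 in primed cells (all genes -0.40), -0.68 across 58 members in Ago2 KO cells (-0.51) and -0.27 in MEFs (-0.06).

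In MEFs transcript length, taken from the transcript with the longest coding sequence, gave the stronger description. Its Spearman correlation with enrichment was -0.61 across 60 members and -0.61 across all genes. Enriched members (31) had a median transcript of 1836 bases (774 to 7797), depleted ones with a value (15) 4325 (2726 to 8134). For ribosome occupancy in control cells the correlation with coding length was -0.80 across 61 members and -0.74 across all genes, and in degron cells -0.82 and -0.66. Members higher in polysomes (19) had a median coding length of 654 bases (342 to 1227) and those lower (19) 2175 (1236 to 4947). These correlations are across genes, which are not independent replicates and share libraries, length and base composition, and the values of all genes show that they are not particular to translation factors. Any effect of base composition or length on library preparation and counting was not tested.

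**Figure D5:**
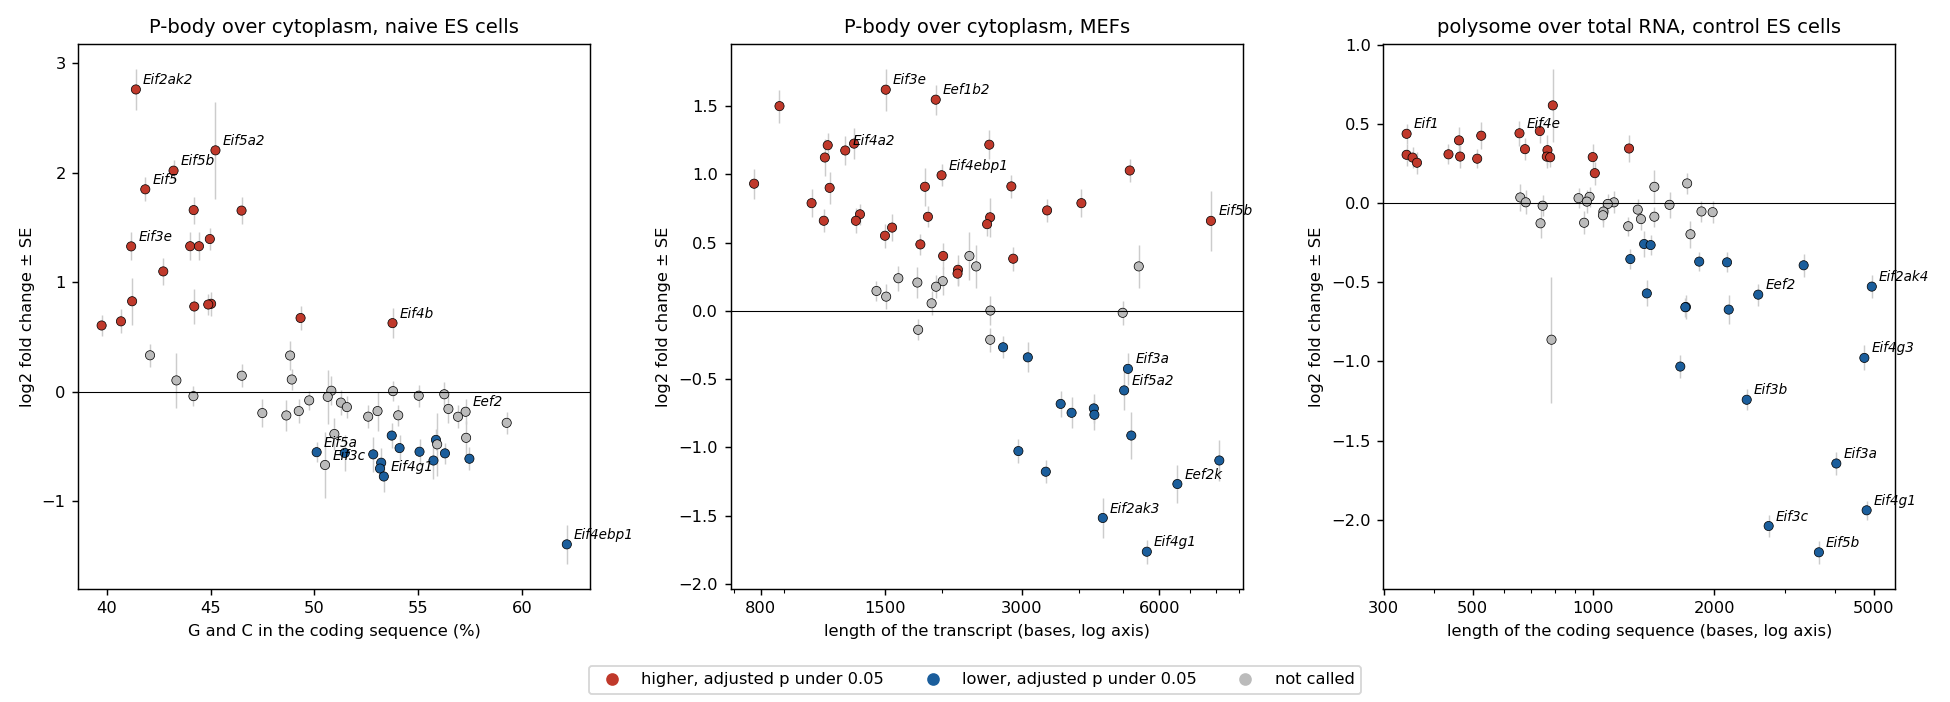
Log2 fold change ± SE of each member against a sequence feature, for naive P-body enrichment and coding G and C content (left), MEF P-body enrichment and transcript length on a log axis (middle), and control ribosome occupancy and coding length on a log axis (right). Features are those of the transcript with the longest coding sequence. Red and blue points were called higher and lower; the values fall from left to right in each panel, with Spearman correlations of -0.75, -0.61 and -0.80.

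Enrichment in P-bodies and occupancy in control ES cells were set side by side for the same genes, from separate tables. The Spearman correlation was 0.27 across 64 members for naive P-bodies (0.03 across all genes), 0.32 for primed (0.25) and 0.51 across 62 members for MEFs (0.56). Single members show how the measures separate. Eif5b was among the members highest in naive P-bodies and lowest in polysomes, Eif4g1 was low in both, and Eif4e, Eif1 and Eif5a2 were high in both.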

How the data were processed

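RNA of sorted P-bodies and of the cytoplasm before sorting was sequenced in 24 libraries, and polysome-bound and total RNA in 12. For the 20 P-body and cytoplasm libraries other than Ago2 KO, the authors made SMART-Seq libraries, aligned reads to mm10 with HISAT2 and deposited featureCounts values on refGene, which are partly expected counts, since 17.6% to 25.7% of values per library were not whole. For polysome and total RNA the authors deposited expected counts from salmon run in the nf-core pipeline (5.05% to 6.19% not whole). The expected counts deposited for Ago2 KO cells are merged salmon gene counts, whose library kit, annotation and settings are not given in the sources used here (11.6% to 13.1% not whole). The submitters' processing notes name mm10, HISAT2, featureCounts and DESeq2. Tables of the authors' own comparisons, with a log2 fold change and p-value per gene, were not used.

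Counts were rounded and each of 17 comparisons was fitted with edgeR 4.0.16 (R 4.3.3), using TMM scaling and a two-sided quasi-likelihood test on genes with at least 10 reads summed across the fitted libraries. Calls were made at a Benjamini-Hochberg adjusted p under 0.05 over all genes tested. Differences between enrichments or occupancies were interaction contrasts over 4 groups. The differences in enrichment reuse the libraries of the single enrichments. CPM of single libraries are on the library total, and the standard error is the fold change over the root of the F statistic. Sampling depth sets the counting error, and CPM of low genes are the least precise. Genes followed one by one were a set fixed by role and, per comparison, the 3 members with the largest called change in each direction at a mean of at least 10 CPM; values of other members are given by group or for their role. The members and the role, TOP and partner lists were chosen with earlier results of these data known. Levels per kb used the longest transcript of GENCODE M21 on GRCm38.p6, the assembly that mm10 names. Lengths, base composition and sequences used the complete protein-coding transcript with the longest coding sequence. For some members that is not the longest transcript, as for Eif4a2, with 1227 bases and no untranslated ends against 2708. Reads of overlapping genes could not be separated where counting did not use strand. DESeq2 1.42.0, DESeq2's size factors in edgeR, other filters, unrounded counts, a replicate block, a fit over all groups and leaving out each library were tried as alternatives. The scripts were tested on simulated data. No column of per-sample values was left unused (0).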

Additional observations from a re-analysis of the deposited data

Results flagged for a closer look

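Each value in this section was marked because the P-body enrichment of a gene, P-body over cytoplasm on the log2 scale, differed between cell types by edgeR's interaction test at an adjusted p under 0.05. All such differences rest on 2 libraries per group, and the 3 tests share libraries, since naive cells and MEFs each enter more than 1 of them.

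Between naive and primed ES cells 22 of 68 members differed. Of the genes followed one by one, the ratio was higher in naive cells for Eif2ak2 (1.65), Eif3a (1.15), Eif5 (0.92), Eif2s3x (0.86), Eif5b (0.73) and Eif4b (0.60). It was lower in naive cells for Eif4ebp1 (-1.21), Eif2d (-0.81), Eef1akmt4 (-0.76), Eif3f (-0.62), Eif6 (-0.52), Eef1a1 (-0.51) and Eif2b5 (-0.40).

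Between naive ES cells and MEFs 48 of 68 members differed. Higher ratios in naive cells were those of Eif2ak2 (3.28), Eif5a2 (2.59), Eif3a (1.89), Eif4e (1.48), Eif2s3x (1.29), Eif4b (1.18), Eif5b (1.17), Eif5 (0.87), Eif4g1 (0.80), Eif4g3 (0.73), Eif2ak3 (0.68) and Eif4g2 (0.65). Lower ratios in naive cells were those of Eif4ebp1 (-2.58), Eef1b2 (-1.93), Eef1akmt4 (-1.72), Eif3f (-1.44), Eif4a2 (-1.27), Eef1g (-1.11), Eif6 (-0.97), Eif5a (-0.89), Eif2s2 (-0.80), Eef1a1 (-0.76), Eif2b5 (-0.68), Eif2s1 (-0.60) and Eif1ax (-0.58). The higher group includes the 3 eIF4G genes, which were depleted in MEF P-bodies, and the lower group holds translation elongation factors.

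Between day 3 control cells and MEFs 15 of 69 members differed. Day 3 ratios were higher for Eif3c (1.17), Eif4g1 (0.98), Eif2ak2 (0.90), Eif4b (0.87), Eef2k (0.84), Eif2s3x (0.76) and Eif3a (0.59). They were lower for Eef1b2 (-1.02), Eef1akmt1 (-0.80), Eif4a2 (-0.72), Eif1ax (-0.65) and Eif1 (-0.49).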

How the results depend on the processing

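A reversal here needed a call in the main fit or the alternative, so values called in neither were not compared for direction. Across the genes followed one by one, 548 of 576 values kept their side of the threshold, and their direction where called, with DESeq2. So did 564 with DESeq2's size factors in edgeR, 543 with no filter on low counts and 574 with unrounded counts, and none reversed. Of 3304 values with 1 library left out, 2889 did, and 1 reversed: Eif4a2 in naive P-bodies gave -0.24 without cytoplasm replicate 1 and 0.56 without replicate 2. Counts of called members moved by over 1.5 times for day 3 control enrichment (2) to 20 with DESeq2, 15 with no filter and 26 with all groups in a single fit. For Ago2 KO enrichment (9) DESeq2 gave 14 and no filter 14, for the day 3 control against MEF difference (15) no filter gave 24, and for the Nudt21 knockdown against day 3 control difference (0) it gave 1. For the Nudt21 knockdown cytoplasm (40) all groups in a single fit gave 14, and for total RNA (2) 5. Over all genes, DESeq2 called 2105 for day 3 control enrichment and 1731 for Ago2 KO, beside 102 and 1095 in the main fits. The cause was not tested.

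Per the study's methods, total RNA was kept back from the lysates that were fractionated. Cytoplasm was an aliquot of the fraction that was sorted. Fractions were thus matched, but the labels do not say that equal replicate numbers mark the match. The replicate numbers were taken as names only and the main fits were unpaired, since samples of the same number did not deviate together in every pair (correlations of -0.13 to 0.17, and 0.65 in the Ago2 KO pair of fractions). With a replicate block, day 3 control enrichment called 4, Ago2 KO 18 and total RNA 0, and the other counts stayed within 1.5 times.

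Leaving out each library in turn gave these ranges of called members: naive 11 to 52, primed 30 to 46, MEF 38 to 55, day 3 control 0 to 47, Nudt21 knockdown 3 to 38 and Ago2 KO 1 to 27. The differences gave 10 to 47 for naive against primed, 32 to 55 for naive against MEF, 1 to 35 for day 3 control against MEF and 0 to 10 for the knockdown. Cytoplasm gave 5 to 51 for naive against primed, 48 to 51 for day 3 against MEF and 27 to 38 for the knockdown. Occupancy gave 38 to 47 in control and 47 to 50 in degron cells, its change 0 to 0, and total RNA 0 to 18. The share called over all genes in these fits is not given here, so the ranges show nothing particular to the members. Where a group was left with 1 library, that library was assumed to vary like the others. With 2 libraries a group, a gene that missed the threshold is not shown to be equal between groups, and counts below 10 CPM give imprecise ratios.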
